A study of Homo sapiens with 6 samples.

Results

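Transforming growth factor beta (TGF-beta) genes were read out in 6 RNA sequencing libraries of the human glioblastoma cell line LN229. The genes are the 9 rows of the deposited count tables whose symbols are TGFB1, TGFB2, TGFB3, TGFBR1, TGFBR2, TGFBR3, LTBP1, LTBP2 and TGFBI. They were chosen by name, and all 9 of 9 were found among 28265 gene symbols and passed the filter on low counts. The first group comprised 3 libraries labelled TRIM25 knockdown, which the series design describes as carrying a short hairpin RNA against TRIM25, a ubiquitin ligase with a tripartite motif. The second comprised 3 libraries labelled WT, whose titles carry the unexplained letters NC. The hairpin sequence, the number of hairpins, the use of pools or clones and any hairpin in the WT cells are not given in the labels. All cells were kept in medium with 10% fetal bovine serum, itself a source of latent TGF-beta. Ligand from the serum was not measured in either group. Separate cultures are not stated for the replicates, so the p-values reflect the spread among these libraries alone, which may be technical.

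TGF-beta is made as a precursor whose propeptide stays wrapped around the mature dimer. This latent complex is held in the extracellular matrix by latent TGF-beta binding proteins and is opened by integrins or proteases. The free ligand binds a type II receptor, which recruits and phosphorylates a type I receptor. The type I receptor in turn phosphorylates SMAD2 and SMAD3, which enter the nucleus with SMAD4. In glioblastoma the pathway is known for its part in invasion, the stem-like state and suppression of immune cells. The TGFB2 product was among other sources isolated from glioblastoma cells, as a T cell suppressor factor.

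TRIM25 mRNA, the check of the labels, was higher in the libraries labelled knockdown. Its raw counts were 964, 905 and 1443 in the libraries labelled knockdown, against 561, 493 and 563 in the WT libraries. The log2 fold change was 1.22 ± 0.07 (SE), with a p of 3.23e-09 from edgeR adjusted over all tested genes by the Benjamini-Hochberg method. The targeted gene thus ran against the label, and every direction below is that of the labelled groups, not of a loss of TRIM25 mRNA. Were the labels exchanged, every sign would turn round, and the labels and files do not settle whether they were. The glioma markers VIM, NES, CD44, S100B and SOX2 were each above 100 TPM on average in both groups, OLIG2 and EGFR lay between 5.40 and 14.9 TPM, and GFAP, a defining astroglial marker, was under 1 TPM. Of the 7 glioma markers tested NES rose by 0.27 on the log2 scale, while SOX2, OLIG2 and S100B fell by 0.66, 0.67 and 0.33. Of the oligodendrocyte markers MBP fell by 1.90 and MOG did not pass. The part of these markers in the results below was not tested. TPM is the deposited count per gene length, scaled to the same sum in each library. CDKN2A, which is deleted in LN229, had 0 TPM in all 3 libraries labelled knockdown and at most 0.0772 TPM in a WT library. Of the leukocyte markers, PTPRC averaged 0.127 TPM in the libraries labelled knockdown and 0.0408 TPM in the WT libraries, and AIF1 was at 0. CD14 averaged 0.981 TPM in the libraries labelled knockdown and 1.14 TPM in the WT libraries. CD68, a lysosomal protein gene that is not restricted to leukocytes, averaged 106.2 TPM in the libraries labelled knockdown and 72.9 TPM in the WT libraries and was higher (log2 fold change 0.49, edgeR adjusted p = 0.000299). Summed over the 4 leukocyte markers the range was 99.3 to 117.5 TPM in the libraries labelled knockdown and 71.6 to 75.8 TPM in the WT libraries. Total counts ranged from 11349865 to 16404725 per library, and 14315 genes were tested. Replicate 1 of the libraries labelled knockdown lay farthest out on principal component 2, which held 16.6% of the variance.

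Most of the 9 genes were lower in the libraries labelled knockdown, but few of the differences passed the test. Of the 9 genes 3 fell (TGFB2, TGFBR3 and TGFBI), 0 rose and 6 did not pass an edgeR adjusted p of 0.05. Across all tested genes 23.3% were called, 12.2% higher and 11.0% lower. The fitted log2 fold change was negative in 8 of the 9 genes, with a median of -0.18. Over all 14315 tested genes it was negative in 7268, with a median of -0.0038. Measured as CPM, counts scaled to a common library size, 4 of the 9 showed no overlap between groups, each with the libraries labelled knockdown lower, while 19.0% of all tested genes were of that kind and 37.3% did not overlap in either direction. The 9 genes were chosen with earlier results of these data known, and 3 in 9 is 33.3%. Without replicate 2 of the libraries labelled knockdown, WT replicate 2 or WT replicate 3, the genes called over the whole table numbered 1868, 1826 and 1877, against 3330 with all 6 libraries. Without replicates 1 or 3 of the libraries labelled knockdown they numbered 4941 and 2445, and without WT replicate 1 they numbered 3096.

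**Figure D1:**
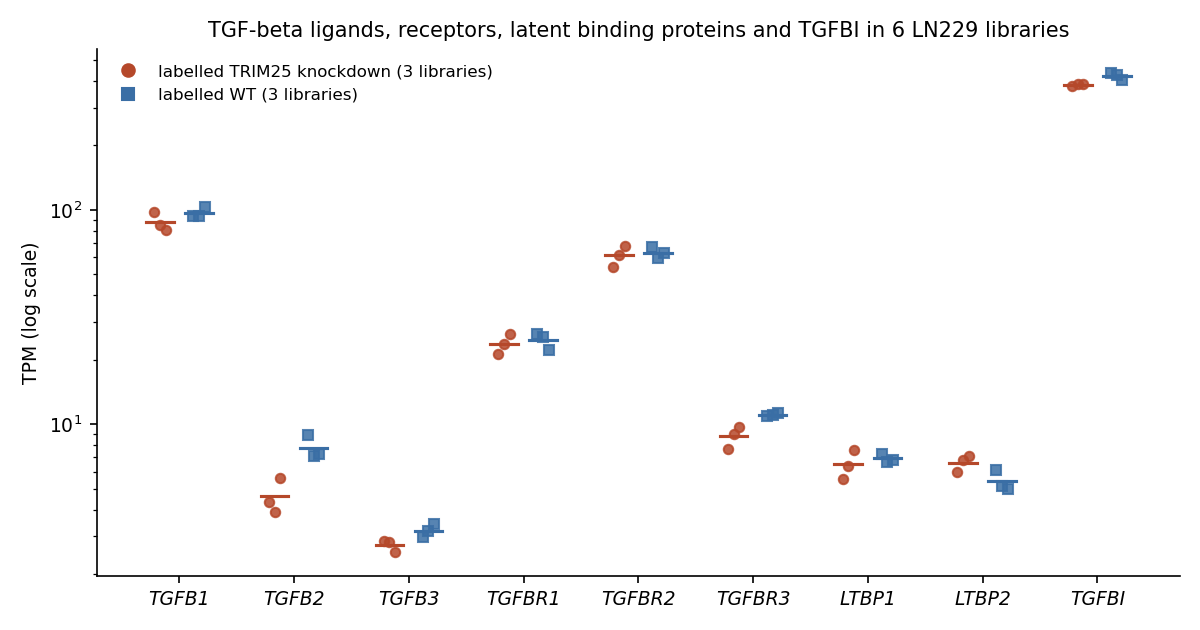
Level of the 9 genes in each library in TPM on a log axis, circles for the 3 libraries labelled TRIM25 knockdown and squares for the 3 WT libraries, with bars at the group means. TGFBI lies above all other genes in both groups, and TGFB2, TGFB3, TGFBR3 and TGFBI show no overlap between the groups.

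TGFBI was the most abundant of the 9 and TGFB3 the least. In the libraries labelled knockdown the mean levels ran from TGFBI over TGFB1, TGFBR2, TGFBR1, TGFBR3, LTBP2, LTBP1 and TGFB2 to TGFB3, or from 384.3 ± 3.96 TPM to 2.74 ± 0.172 TPM (SD, n = 3). In the WT libraries the first 5 places were the same, and TGFB2 came before LTBP1 and LTBP2, with 420.7 ± 14.9 TPM for TGFBI and 3.19 ± 0.231 TPM for TGFB3 (SD, n = 3). Neighbours in the order were separate in all 3 libraries of a group, except LTBP2 with LTBP1 and LTBP1 with TGFB2 in the libraries labelled knockdown and TGFB2 with LTBP1 in the WT libraries. The plot of levels by library shows this order.

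Among the ligands, TGFB2 fell and TGFB1 and TGFB3 did not pass. TGFB2, the isoform named above for its isolation from glioblastoma cells, had 112, 92 and 187 counts in the libraries labelled knockdown, against 300, 215 and 254 counts in the WT libraries. Per length this was 4.32, 3.90 and 5.61 TPM in the libraries labelled knockdown, against 8.91, 7.14 and 7.28 TPM in the WT libraries. The groups did not overlap, and replicate 3 was the highest of the libraries labelled knockdown. TGFB2 fell by 0.78 on the log2 scale, or 1.72-fold (SE 0.12; 95% interval from -1.04 to -0.53; edgeR adjusted p = 0.000229). Leaving out each library in turn gave log2 fold changes between -0.95 and -0.68, with adjusted p of at most 0.00273.

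TGFB1, the ligand gene expressed by most cell types, made up most of the ligand mRNA. It stood at 97.3, 85.1 and 80.8 TPM in the libraries labelled knockdown, against 93.3, 93.7 and 102.7 TPM in the WT libraries. The groups overlapped, since replicate 1 of the libraries labelled knockdown lay above WT replicates 1 and 2. Its log2 fold change was -0.19 ± 0.08 (SE; edgeR adjusted p = 0.107), and without that replicate it was -0.29 with an adjusted p of 0.00156. Leaving out replicate 3 of the libraries labelled knockdown gave -0.11 (adjusted p = 0.364), WT replicate 3 gave -0.13 (0.381), and the length and GC offset described further on gave -0.10 (0.131). TGFB3, known for its part in palate closure, had 49, 44 and 56 counts in the libraries labelled knockdown, against 66, 63 and 79 counts in the WT libraries. Scaled to depth its groups did not overlap, but the log2 fold change of -0.28 had a 95% interval from -0.62 to 0.06 and did not pass (edgeR adjusted p = 0.225).

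The share of each isoform in the ligand mRNA was computed from TPM. TGFB2 made up 4.13%, 4.25% and 6.31% of the summed TPM of the 3 ligand genes in the libraries labelled knockdown, against 8.47%, 6.86% and 6.42% in the WT libraries. TGFB1 made up 93.1%, 92.7% and 90.8% in the libraries labelled knockdown, against 88.7%, 90.1% and 90.6% in the WT libraries. The groups did not overlap in either share, though replicate 3 of each group lay close to the other. The TGFB3 share was 2.89% ± 0.169 in the libraries labelled knockdown and 2.96% ± 0.122 in the WT libraries (SD, n = 3 each). A two-sided exact permutation test gave p = 0.10 for TGFB1 and TGFB2, the smallest that 3 against 3 libraries allow, and p = 0.70 for TGFB3. Benjamini-Hochberg adjusted over the 3 ligand and 3 receptor shares, these were 0.15 for TGFB1 and TGFB2 and 0.80 for TGFB3. The shares of a library add up to the whole, so those of TGFB1 and TGFB2 are not separate results. A larger TGFB1 share is not a rise of TGFB1, whose own log2 fold change was -0.19.

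The sequence in front of the transcription start differs between TGFB1 and TGFB2 and is printed because their levels and fold changes differ. The 250 bases upstream of the start come from RefSeq on GRCh38.p14, a newer build than the hg19 of the deposited counts, and read 5′ to 3′ on the gene's strand. The TGFB2 window is chr1:218345086-218345335 (plus strand) and the TGFB1 window is chr19:41353923-41354172 (minus strand). Capitals mark matches on either strand to the motifs searched. These were the SMAD-type element CAGACA, the core promoter element TATAAA, the Sp1 recognition element GGGCGG (GC box), the AP-1 element TGANTCA, the cyclic AMP response element TGACGTCA and the element bound by NF-Y, CCAAT.
TGFB2: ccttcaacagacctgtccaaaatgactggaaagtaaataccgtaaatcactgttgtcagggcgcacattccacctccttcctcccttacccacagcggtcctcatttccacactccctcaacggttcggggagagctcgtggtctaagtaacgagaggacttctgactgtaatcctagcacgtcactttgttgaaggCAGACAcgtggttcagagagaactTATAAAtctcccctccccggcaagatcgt
TGFB1: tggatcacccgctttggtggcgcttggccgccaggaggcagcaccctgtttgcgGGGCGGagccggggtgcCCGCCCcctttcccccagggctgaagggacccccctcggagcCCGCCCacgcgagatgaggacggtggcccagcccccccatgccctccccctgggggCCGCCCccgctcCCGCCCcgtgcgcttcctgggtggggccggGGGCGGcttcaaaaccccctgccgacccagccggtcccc
The TGFB2 window held CAGACA 53 bases and TATAAA 29 bases before the start, and had a GC content of 50.4%. The TGFB1 window held 6 GC boxes and no TATA element, and had a GC content of 76.8%. No matches overlapped. Of 35093 such windows, 13.6% held CAGACA, 10.7% held TATAAA and 42.6% held GGGCGG. The motifs of the TGFB2 window were also found in members that did not pass. A TGFB3 window held TATAAA 30 bases before the start, and windows of TGFBR1 and LTBP1 held CAGACA. GENCODE v29 places annotated exons over 161 of the 250 bases of the TGFB2 window and over 4 of those of TGFB1. A match is a run of letters and not a measured binding site. Whether the sequence of any printed window bears on level or fold change was not tested.

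Transcripts that share sequence or a promoter region with TGFB2 had few or no counts. TGFB2-AS1, a divergent noncoding transcript, had 1, 3 and 1 counts in the libraries labelled knockdown and 6 counts in each WT library. It failed the low-count filter, and without that filter it did not pass (log2 fold change -1.57, edgeR adjusted p = 0.144). TGFB2-OT1, which shares 1371 bp of exon with TGFB2 on the same strand, had 0 counts in all 6 libraries. TGFB1 shares 215 bp of exon with HNRNPUL1 on the opposite strand, and TGFB3 shares 163 bp with TGFB3-AS1. The strand setting of the authors' counting is not given in the sources used here, so reads from such overlaps cannot be told apart.

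Of the receptor genes TGFBR3 fell, and the signalling receptors TGFBR1 and TGFBR2 did not pass. TGFBR3 encodes betaglycan, a proteoglycan co-receptor that presents ligand to the type II receptor and is known to be needed for high-affinity binding of TGF-beta 2. It stood at 7.67, 9.04 and 9.70 TPM in the libraries labelled knockdown, against 10.9, 11.0 and 11.3 TPM in the WT libraries. All 3 libraries labelled knockdown lay below all 3 WT libraries. TGFBR3 fell by 0.38 on the log2 scale (SE 0.09; 1.30-fold; edgeR adjusted p = 0.00486), and without each library in turn the log2 fold change lay between -0.44 and -0.30, with adjusted p of at most 0.0272.

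TGFBR1, the type I receptor kinase gene, had 21.3, 23.7 and 26.3 TPM in the libraries labelled knockdown, against 26.3, 25.6 and 22.3 TPM in the WT libraries. TGFBR2, the gene of the type II receptor kinase that binds ligand first, had 54.1, 61.7 and 68.1 TPM in the libraries labelled knockdown, against 67.0, 59.7 and 62.6 TPM in the WT libraries. In both genes the groups overlapped widely. Their log2 fold changes were -0.10 and -0.09, with 95% intervals from -0.27 to 0.06 and from -0.24 to 0.06 (edgeR adjusted p = 0.346 and 0.373). With an offset for gene length and GC content, TGFBR1 had a log2 fold change of -0.21 and an adjusted p of 0.00248.

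TGFBR3 made up 9.23%, 9.56% and 9.32% of the summed TPM of the 3 receptor genes in the libraries labelled knockdown, against 10.5%, 11.4% and 11.7% in the WT libraries. The groups did not overlap, and the two-sided exact permutation test gave its smallest possible p of 0.10, as it did for TGFBR2, at 65.3% ± 0.127 in the libraries labelled knockdown and 63.8% ± 1.61 in the WT libraries (SD, n = 3 each). The TGFBR1 share was 25.3% ± 0.250 in the libraries labelled knockdown and 25% ± 1.69 in the WT libraries (exact p = 0.80). Receptor shares also add up to the whole, so those of TGFBR2 and TGFBR3 are not separate results. The window upstream of TGFBR3, at chr1:91886152-91886401 on the minus strand, is shown with matches in capitals as for the ligands, since this receptor gene moved in the same direction as TGFB2. RefSeq extends TGFBR3 further upstream, to position 91906002, so this window lies inside the gene, before the start of a shorter transcript, and not at the gene end as for the other 3 windows printed.
TGFBR3: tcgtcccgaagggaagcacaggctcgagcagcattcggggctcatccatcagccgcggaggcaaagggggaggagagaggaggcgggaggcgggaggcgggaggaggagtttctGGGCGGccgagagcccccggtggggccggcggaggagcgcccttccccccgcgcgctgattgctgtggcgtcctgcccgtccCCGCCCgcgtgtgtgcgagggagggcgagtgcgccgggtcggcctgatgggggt
It held 2 GC boxes, 136 and 54 bases before the start, none of the other motifs, and a GC content of 73.6%. GENCODE v29 exons cover 128 of its bases.

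LTBP1 and LTBP2 did not pass, and they lay on opposite sides of 0. LTBP1, which anchors latent TGF-beta in the matrix, had 5.57, 6.38 and 7.56 TPM in the libraries labelled knockdown, against 7.30, 6.70 and 6.79 TPM in the WT libraries. The WT values lay within the range of the libraries labelled knockdown. Its log2 fold change was -0.13 ± 0.10 (SE; edgeR adjusted p = 0.371). LTBP2, a family member that is known to bind fibrillin microfibrils but not latent TGF-beta, had 5.97, 6.80 and 7.12 TPM in the libraries labelled knockdown, against 6.14, 5.14 and 4.99 TPM in the WT libraries. The groups overlapped in 1 library each, and LTBP2 was the member with a positive log2 fold change, 0.24 ± 0.10 (SE; edgeR adjusted p = 0.0762). It passed without replicate 1 of the libraries labelled knockdown (0.30, adjusted p = 0.0191), without WT replicate 1 (0.32, adjusted p = 0.0357) and with the length and GC offset (0.24, adjusted p = 0.0388). Of the other genes of the family, named after their values were seen, LTBP3 averaged 426.4 ± 41.0 CPM in the libraries labelled knockdown and 354.2 ± 15.2 CPM in the WT libraries (SD, n = 3 each) and rose by 0.27 (edgeR adjusted p = 0.00686), a call lost without WT replicate 2 (0.0549). LTBP4 had a log2 fold change of -0.07 and did not pass (adjusted p = 0.606). LTBP1 and LTBP2 share 249 and 207 bp of exon with opposite-strand gene models.

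TGFBI, a secreted matrix protein gene named for its induction by TGF-beta, fell by a small amount. It stood at 379.9, 385.3 and 387.6 TPM in the libraries labelled knockdown, against 433.9, 423.5 and 404.6 TPM in the WT libraries. The groups did not overlap. TGFBI fell by 0.18 on the log2 scale, or 1.13-fold (SE 0.05; 95% interval from -0.29 to -0.07; edgeR adjusted p = 0.0171). The call was lost without replicate 2 of the libraries labelled knockdown (adjusted p = 0.0872) or WT replicate 2 (0.0990), and with the length and GC offset the log2 fold change shrank to -0.11 (adjusted p = 0.0210). The window upstream of TGFBI, at chr5:136028738-136028987 on the plus strand, is printed as the third of the genes that fell.
TGFBI: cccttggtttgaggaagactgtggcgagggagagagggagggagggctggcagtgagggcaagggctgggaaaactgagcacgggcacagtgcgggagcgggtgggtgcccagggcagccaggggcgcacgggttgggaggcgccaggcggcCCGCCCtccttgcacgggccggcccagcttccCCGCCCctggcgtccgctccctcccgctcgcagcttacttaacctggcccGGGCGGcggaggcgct
It held 3 GC boxes, 98, 66 and 16 bases before the start, no CAGACA and no TATA element. Exons of GENCODE v29 cover 93 of its bases.

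**Figure D2:**
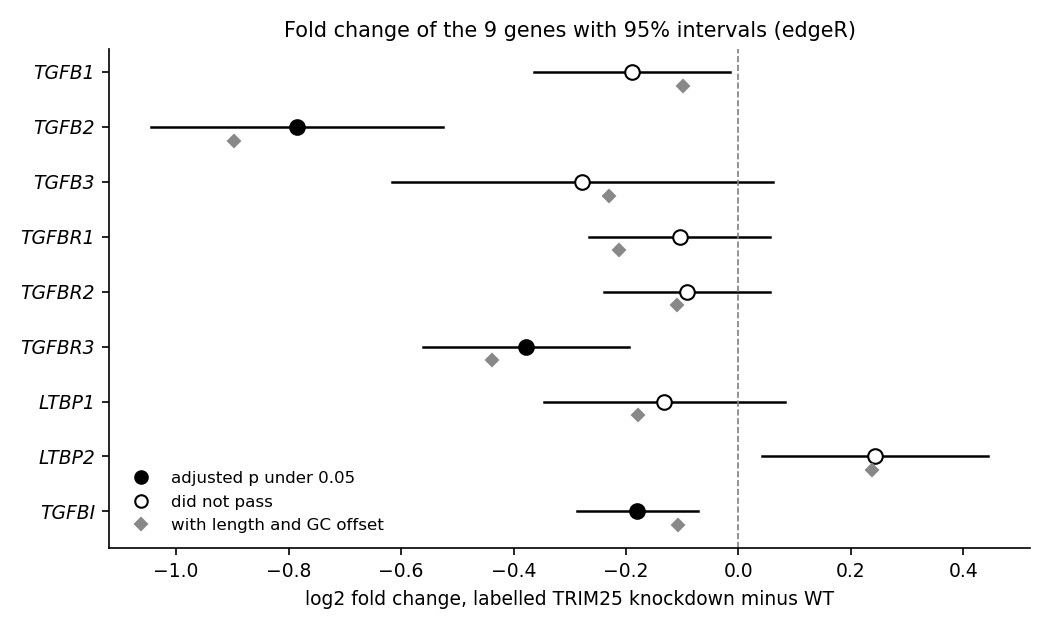
Log2 fold change of the 9 genes, libraries labelled TRIM25 knockdown minus WT, with unadjusted 95% intervals from edgeR; filled circles passed an adjusted p of 0.05, and grey diamonds give the value with the length and GC offset. TGFB2 lies farthest from 0 at -0.78, and LTBP2 is the gene to the right of 0 at 0.24.

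The plot of fold changes shows the intervals side by side. Across all tested genes the fold change followed gene length (Spearman's rho 0.30, over genes, which are not independent replicates) and GC content (rho -0.26). The files give lengths of 2712 bp for TGFBI, 2780 bp for TGFB1 and 3968 bp for TGFB3, and between 4703 and 8460 bp for the other 6. Libraries of the same group also differed along length. Within the libraries labelled knockdown, rho between gene length and the deviation from the group mean was -0.38 in replicate 1 and 0.38 in replicate 3. In replicate 3 all 6 genes of at least 4703 bp lay above the group mean and the 3 shorter genes below it, and in replicate 1 all 9 lay on the other side. TGFB2 deviated by 0.26 in replicate 3 and by -0.23 in replicate 2 on the log2 scale. In WT replicate 1, where rho was 0.41, 5 of the 6 longer genes lay above the group mean and TGFB1 and TGFB3 below it. The part of this trend in the fold changes was not tested beyond the offset given above, under which TGFB2 and TGFBR3 had log2 fold changes of -0.90 and -0.44 and kept their calls (adjusted p = 4.89e-07 and 8.79e-05).

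**Figure D3:**
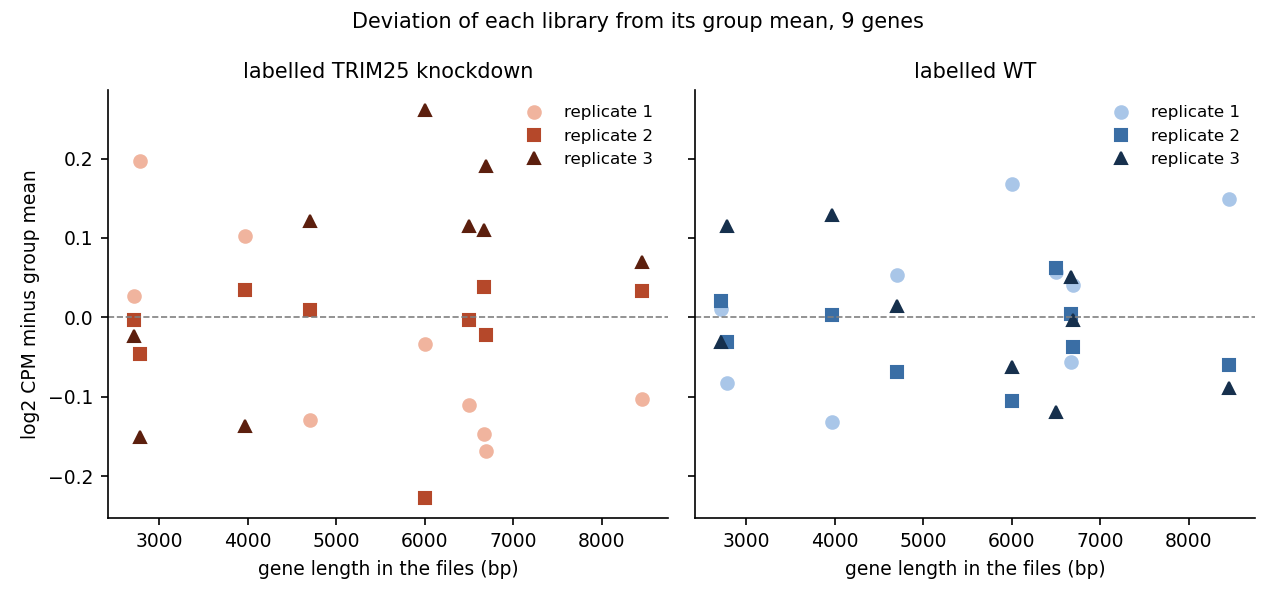
Log2 CPM of each gene minus its group mean, against gene length in bp, for the 3 libraries labelled TRIM25 knockdown (left) and the 3 WT libraries (right). In the left panel replicate 3 lies above 0 for genes of at least 4703 bp and below 0 for shorter genes, and replicate 1 the reverse.

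The 3 tested genes whose pattern over the 6 libraries was closest to TGFB2, by the root mean square difference in centred log2 CPM, were UNC5C (0.0821), HHIPL2 (0.0927) and PDE7B (0.0962). UNC5C, a netrin receptor gene, averaged 17.3 ± 1.75 CPM in the libraries labelled knockdown and 29.9 ± 0.895 CPM in the WT libraries (SD, n = 3 each). PDE7B, a cAMP phosphodiesterase gene, averaged 9.63 ± 1.17 CPM in the libraries labelled knockdown and 17 ± 0.425 CPM in the WT libraries. HHIPL2 was rarer, at 1.39 ± 0.225 CPM in the libraries labelled knockdown and 2.61 ± 0.491 CPM in the WT libraries. These 3 were taken as the nearest of all tested genes, so their likeness is a description.

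The rest of the pathway was described with 5 lists of genes, all adjusted p-values being over all tested genes. The lists were compiled from general knowledge with earlier results of these data known. In the list of latency and activation genes 15 of 18 were tested, of which 6 rose, 1 fell and 8 did not pass, with a median log2 fold change of 0.18. The integrin subunit genes ITGB3 and ITGB8, whose products pair with alpha V and bind latent TGF-beta, rose by 1.06 ± 0.06 and 0.41 ± 0.06 on the log2 scale (SE; edgeR adjusted p = 3.23e-09 and 0.000236). Under the other settings with all 6 libraries ITGB8 went down to 0.28 and kept its call. ITGB5, another partner of alpha V, fell by 0.20 (adjusted p = 0.0277), a call lost without replicate 2 of the libraries labelled knockdown (0.156) and without WT replicates 1 or 3 (0.0643 and 0.145). ITGAV, the alpha V gene itself, did not pass (log2 fold change 0.18, adjusted p = 0.0698), and both were named after their values were seen. ITGB8 averaged 461.0 ± 42.0 CPM in the libraries labelled knockdown and 346.4 ± 17 CPM in the WT libraries (SD, n = 3 each). ITGB3 shares 2266 bp of exon with another gene model on the same strand, so its reads may be split. FBN1, which encodes the microfibril protein fibrillin 1 that LTBPs bind, rose by 0.76 ± 0.09 (SE; adjusted p = 1.22e-05). MMP9, a protease gene, averaged 1.59 ± 0.688 CPM in the libraries labelled knockdown and 0.678 ± 0.368 CPM in the WT libraries, and its groups overlapped. Its log2 fold change of 1.26 passed (adjusted p = 0.0256), but did not without replicate 1 of the libraries labelled knockdown (0.0764), WT replicate 1 (0.0988) or WT replicate 3 (0.0856).

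Of 13 tested co-receptor and receptor genes 2 rose, 1 fell and 10 did not pass, with a median of -0.0023. CD109, a membrane protein known to bind TGF-beta and to dampen its signalling, had 708.1, 815.8 and 919.6 CPM in the libraries labelled knockdown, against 595.3, 515.9 and 494.6 CPM in the WT libraries. The groups did not overlap, and CD109 rose by 0.61 ± 0.08 on the log2 scale (SE; edgeR adjusted p = 4.39e-05). Its lowest value under the other settings with all 6 libraries was 0.46, and the call was kept. BMPR2, a type II receptor gene of bone morphogenetic proteins, rose by 0.34, which shrank to 0.16 with the length and GC offset, and the call was lost without WT replicate 2 (adjusted p = 0.0704). FKBP1A, which encodes the protein FKBP12 that holds type I receptors inactive, fell by 0.14, which shrank to -0.07 with the offset (adjusted p = 0.125). Its call was also lost without replicates 2 or 3 of the libraries labelled knockdown (adjusted p = 0.156 and 0.0951) and without WT replicates 2 or 3 (0.159 and 0.166), with DESeq2 (0.0616) and with no low-count filter (0.0770).

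Of 20 tested SMAD and regulator genes 3 rose, 1 fell and 16 did not pass, with a median of 0.10. The receptor-regulated SMAD2 and SMAD3 and the shared SMAD4 had log2 fold changes of -0.04, 0.10 and 0.0021, none past the test (edgeR adjusted p = 0.719, 0.181 and 0.987). With the length and GC offset SMAD2 had a log2 fold change of -0.22 (adjusted p = 0.00171). The files give SMAD2 a length of 34973 bp, against a median of 3592 bp over all tested genes. How well the offset holds at that length was not tested. The sign for SMAD4 turned under several settings and became -0.13 with the offset (adjusted p = 0.0481). NEDD4L, a ubiquitin ligase gene for activated SMAD2 and SMAD3, rose by 0.41 ± 0.06 (SE), with 112.6 ± 1.32 CPM in the libraries labelled knockdown and 84.8 ± 5.25 CPM in the WT libraries (SD, n = 3 each; edgeR adjusted p = 0.000223). Its log2 fold change went down to 0.32 under the other settings with all 6 libraries, and the call was kept. TRIM33, a tripartite motif ligase gene for SMAD4, rose by 0.27, which shrank to 0.14 with the offset (adjusted p = 0.0253). SMURF1, a ubiquitin ligase gene for receptors and SMADs, rose by 0.19. Its call was lost without replicates 2 or 3 of the libraries labelled knockdown (adjusted p = 0.197 and 0.0969) and without each WT replicate (0.0536, 0.124 and 0.195), and with DESeq2 (0.0577). TGIF1, a SMAD corepressor gene, fell by 0.20, a call lost without replicates 2 or 3 of the libraries labelled knockdown (0.106 and 0.156) and without each WT replicate (0.0597, 0.0984 and 0.164). With DESeq2 and with no low-count filter it was lost too (0.0665 and 0.0558).

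Genes known to be induced by TGF-beta moved in both directions. Of 25 tested of 29 listed, 7 rose, 6 fell and 12 did not pass, with a median of 0.0026. TGM2, a transglutaminase gene whose product crosslinks latent TGF-beta to matrix, averaged 79.3 ± 4.60 CPM in the libraries labelled knockdown and 49.2 ± 1.76 CPM in the WT libraries (SD, n = 3 each). TGM2 rose by 0.69 ± 0.07 on the log2 scale (SE; edgeR adjusted p = 2.18e-06). LIF, a cytokine gene that TGF-beta induces in glioma-initiating cells, rose by 0.49, and ZEB1, a repressor gene of epithelial identity, rose by 0.47. For ZEB1 the lowest value under the other settings with all 6 libraries was 0.34. CCN2, which encodes connective tissue growth factor, had 90.4, 81.2 and 78.2 CPM in the libraries labelled knockdown, against 64.8, 68.6 and 64.2 CPM in the WT libraries, and rose by 0.34 ± 0.07 (SE; adjusted p = 0.00223). SMAD7, the inhibitory SMAD and feedback target, had a log2 fold change of 0.07 (adjusted p = 0.571).

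In the other direction, the collagen gene COL1A1 fell by 0.56, at a low level of 3.55 ± 0.864 CPM in the libraries labelled knockdown and 5.33 ± 0.110 CPM in the WT libraries. Its call was lost with DESeq2 (adjusted p = 0.0631), without replicate 2 of the libraries labelled knockdown (0.134) and without WT replicates 2 or 3 (0.0813 and 0.0642). Of the 13 genes called in this list 8 kept their calls under all 14 other settings. Beside TGM2, LIF, ZEB1 and CCN2 these were TPM1 and PMEPA1, which rose by 0.30 and 0.25, and SNAI1 and SOX4, which fell by 0.41 and 0.37. The last 4 were named after their values were seen.

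Genes in the list of activin and GDF ligands and binding proteins, called the activin branch here, also moved in both directions. Activin signals through the same SMAD2 and SMAD3, which does not hold for every gene listed. Of 7 tested of 17 listed, 2 rose, 3 fell and 2 did not pass, with a median of -0.19. INHBA, the activin A subunit gene, had 168.5, 176.6 and 186.6 CPM in the libraries labelled knockdown, against 132.9, 139.0 and 132.4 CPM in the WT libraries. FST, whose product follistatin traps activin, had 16.9, 15.9 and 15.1 CPM in the libraries labelled knockdown, against 23.6, 23.9 and 21.7 CPM in the WT libraries. The groups overlapped in neither gene. INHBA rose by 0.40 ± 0.06 (SE; edgeR adjusted p = 0.000158) and FST fell by 0.53 ± 0.09 (SE; adjusted p = 0.000383). GDF15, a stress-induced ligand gene of the family, rose by 0.37 ± 0.08 (SE; adjusted p = 0.0039). INHA, the inhibin alpha subunit gene, fell by 0.33. This shrank to -0.18 with the length and GC offset (adjusted p = 0.125), and the call was also lost with DESeq2 (0.10), without replicates 2 or 3 of the libraries labelled knockdown (0.154 and 0.160) and without WT replicates 2 or 3 (0.131 and 0.181).

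**Figure D4:**
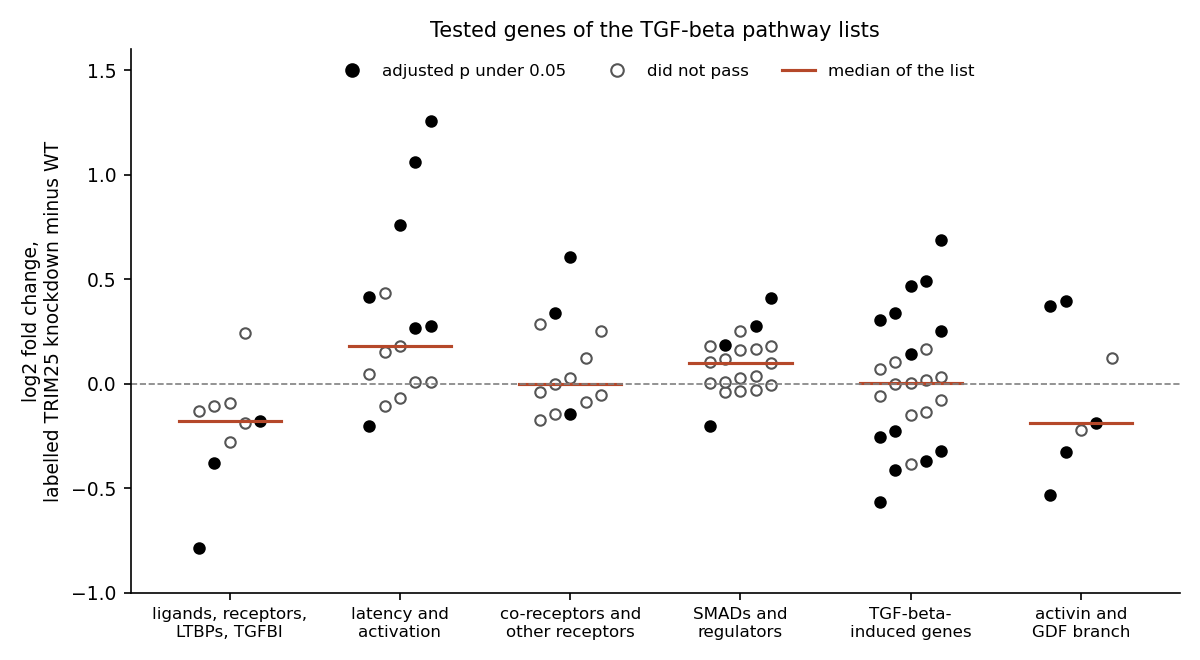
Log2 fold change (libraries labelled TRIM25 knockdown minus WT) of each tested gene in the set of 9 and in the 5 pathway lists; filled circles passed an edgeR adjusted p of 0.05 and bars mark list medians. The medians run from -0.19 for the activin and GDF branch and -0.18 for the 9 genes to 0.18 for latency and activation genes.

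Across the 5 lists 32 genes were called, and 17 kept their calls under all 14 other settings. The share called was 46.7% for latency and activation, 23.1% for receptors, 20% for SMADs and regulators, 52.0% for induced genes and 71.4% for the activin branch, beside 23.3% of all tested genes. No list was tested as a set. Opposite-strand gene models overlap exons of TGM2, LIF, ZEB1, TPM1, SOX4, CD109, ITGB8, NEDD4L, SMURF1, MMP9, PMEPA1, SMAD3, ITGAV, VIM and FKBP1A. Same-strand models overlap those of SMAD4 and FKBP1A, so the reads of all these genes may be shared. TRIM25, the check of the labels, shares 538 bp of exon with an opposite-strand model and 132 bp with C17orf67 on the same strand, among others.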

How the data were processed

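Per the submitters' processing notes, the tools were HISAT2, Trim Galore, MultiQC and FastQC, with no versions, and the build was hg19. Neither a counting program nor a strand setting nor an annotation is named there. The deposited tables, 1 per library and not pooled, hold raw counts per gene symbol. The FPKM and TPM values beside them are the authors' counts scaled to gene length and library total, and gene lengths were recovered from the deposited FPKM.

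The counts as deposited were tested with edgeR 4.0.16 in R 4.3.3 (TMM scaling, filterByExpr, quasi-likelihood test on group alone). P-values were Benjamini-Hochberg adjusted over 14315 genes with a threshold of 0.05, and standard errors were derived from the F statistic. Libraries held 11349865 to 16404725 counts, and their number limits the precision. Shares of TPM were compared by an exact permutation test. The alternatives were DESeq2 1.42.0, its size factors in edgeR, limma-voom 3.58.1, other low-count filters, a replicate block, each library left out, and an offset. The offset removed a spline trend of 4 degrees of freedom in gene length and in GC content of GENCODE v29 transcripts from each library. The fitting code was tested on simulated data. Promoter windows and motif counts came from RefSeq on GRCh38.p14, with no coordinates converted.

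The 9 genes and the pathway lists were chosen with earlier results of these data known. Genes named were the 9, TRIM25, in each list up to 4 called genes with the largest absolute fold change, CCN2, SMAD2, SMAD3, SMAD4 and SMAD7, transcripts named after a member, and the 3 nearest to TGFB2, by root mean square difference in log2 CPM with a pseudocount of 0.5. A further gene that the rule names, and a further marker, are not reported here.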

Additional observations from a re-analysis of the deposited data

How the results depend on the processing

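TGFB2 and TGFBR3 kept their direction and their calls under all 14 other settings. Same-numbered libraries did not deviate together (correlations -0.19, 0.01 and -0.22), so their numbers were taken as numbers alone. With the replicate block 967 genes were called higher and 924 lower, and the lower calls were 0 for latency, 0 for receptors, 0 for SMADs, 2 for induced genes and 1 for the activin branch. Under that replicate block TGFBI had a log2 fold change of -0.18 and missed the threshold (edgeR adjusted p = 0.0903). MMP9, COL1A1, SMURF1, TGIF1, FKBP1A, INHA and ITGB5 also missed it under the block (0.0622, 0.0560, 0.144, 0.128, 0.160, 0.107 and 0.0950). With the replicate block and the length and GC offset together TGFBI had -0.11 (adjusted p = 0.0652), TRIM33 had 0.14 and missed the threshold (0.0613), TGFBR1 had -0.21 and was called, and lower calls were 0 for receptors and 3 for SMADs. With the offset alone TGFBR1 had -0.21 and LTBP2 0.24 and both were called, the members called higher numbered 1, receptor genes lower 0, and SMAD genes higher 5 and lower 4. With DESeq2, and with no low-count filter, the lower calls were 0 for receptors and 0 for SMADs. DESeq2 called 2572 genes in all, and the offset 4622. SMAD4, near 0, reversed with limma-voom (-0.00040), the offset (-0.13), the replicate block (-0.00098) and both together (-0.14), and without replicates 2 or 3 of the libraries labelled knockdown or WT replicates 1 or 2. Without each library in turn it ranged over -0.039 to 0.069, and SMAD2 over -0.056 to 0.014, above 0 without replicate 1 of the libraries labelled knockdown. As shares of raw counts the differences, libraries labelled knockdown minus WT, were 4.39 percentage points for TGFB1, -4.39 for TGFB2 and 0.0028 for TGFB3. For these changes the cause was not tested.

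Leaving out each library in turn gave 930 to 2622 genes higher and 866 to 2319 lower. Members called higher ranged over 0 to 1. Latency genes lower ranged over 0 to 3, receptor genes higher over 1 to 3 and lower over 0 to 2, and SMAD genes higher over 2 to 5 and lower over 0 to 1. Induced genes lower ranged over 2 to 7 and activin genes lower over 1 to 4. The highest counts came without replicate 1 of the libraries labelled knockdown, tied for members with WT replicate 1. The log2 fold change ranged over -0.29 to -0.11 for TGFB1, 0.20 to 0.32 for LTBP2 and -0.20 to -0.17 for TGFBI. TGFB3 had between 44 and 79 counts per library.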

Other observations

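DCN, which encodes decorin, a matrix proteoglycan known to bind TGF-beta, was on the fibroblast marker list and is named here after its values were seen. It had 104, 99 and 126 counts in the libraries labelled knockdown, against 304, 239 and 313 counts in the WT libraries. The groups did not overlap. DCN fell by 1.17 ± 0.10 on the log2 scale (SE; edgeR adjusted p = 6.39e-07), and the call held under all 14 other settings. The 3 fibroblast markers together summed to 48.1 to 55.5 TPM in the libraries labelled knockdown and 54.1 to 57.5 TPM in the WT libraries. DCN averaged 3.35 TPM in the libraries labelled knockdown and 7.24 TPM in the WT libraries, and COL1A1 averaged 1.71 and 2.49 TPM. Both are a small part of the sum, which rests mostly on the remaining marker.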
